A study of Ovis aries with 23 samples.

Results

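ADGRE3 and HAL are 2 of the 20 features measured in lung tissue of 23 sheep with experimental acute respiratory distress syndrome (ARDS). They were chosen by place, as the features that stood 10th (T010) and 13th (T013) in the deposited table, the places of ADGRE3 and HAL in the probe table of the study. No table that pairs features and genes was used here, so both names hold only as far as this order does. T007 and T011, at the places of ZDHHC19 and RBP7, had the lowest median counts of the table, 7 and 8. The paper excluded RBP7 and a gene that its text names ZDHHC18, since their counts fell below the assay's detection limit. All animals were anaesthetised, mechanically ventilated ewes, Merino-Dorset crosses of 1 to 3 years, whose lungs were injured with intravenous oleic acid. The 14 Ph1 animals (hypoinflammatory phenotype) received oleic acid alone, and the 9 Ph2 animals (hyperinflammatory phenotype) received intravenous lipopolysaccharide in addition. Tissue was taken at 6 h (5 Ph1, 3 Ph2), 12 h (4 Ph1, 3 Ph2) or 24 h (5 Ph1, 3 Ph2), and RNA of 3 lobes of the right lung was pooled per animal. For C19 (Ph1) and SD4 (Ph2), both at 12 h, the supplement lists upper-lobe RNA with an integrity below the study's limit. Whether that RNA was pooled is not stated, and RNA integrity was not tested here. CELTIC, the first study, contributed 12 animals (8 Ph1, 4 Ph2) and STARDUST, the second, 11 (6 Ph1, 5 Ph2). No uninjured sheep was among the 23. All 8 animals at 24 h came from STARDUST, which had 3 animals at the earlier time points (1 Ph1 at 6 h and 2 Ph2 at 12 h), so that time point and study overlapped in large part.

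ADGRE3 (also called EMR3) is an adhesion G protein-coupled receptor with EGF-like domains, found on mature granulocytes, monocytes and macrophages. HAL, histidine ammonia-lyase, carries out the first step of histidine breakdown, which releases ammonia and urocanate, and is best known from liver and skin. Both genes were put on the panel because they were higher in blood leukocytes of patients with the uninflamed ARDS subphenotype, named P1. In the RefSeq gene table of the sheep assembly ARS-UI_Ramb_v3.0, ADGRE3 lies between ZNF333 and CLEC17A. HAL lies between AMDHD1, which encodes the imidazolonepropionase of the same pathway, and LTA4H, which encodes leukotriene A4 hydrolase.

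The assay, a custom NanoString nCounter panel, counts transcripts by a pair of probes that bind side by side, without amplification. The pairs for both genes are shown because every value below is a count of molecules bound by them, with the bases that pair with the transcript in capitals and the remaining, tag-binding bases in lower case, all from 5′ to 3′.
ADGRE3 probe A: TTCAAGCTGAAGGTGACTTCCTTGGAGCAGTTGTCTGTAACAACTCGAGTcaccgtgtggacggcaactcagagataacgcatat
ADGRE3 probe B: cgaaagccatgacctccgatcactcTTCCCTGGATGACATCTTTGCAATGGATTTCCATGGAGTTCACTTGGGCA
HAL probe A: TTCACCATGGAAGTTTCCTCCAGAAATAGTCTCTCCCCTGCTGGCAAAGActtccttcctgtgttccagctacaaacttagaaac
HAL probe B: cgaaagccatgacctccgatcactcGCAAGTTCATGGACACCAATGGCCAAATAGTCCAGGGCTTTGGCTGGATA
Each pair covered 100 bases of its transcript, 50 by probe A and 50 by probe B. The lower-case start of 25 bases was the same in all 22 probes B of the panel, so that only the capitals tell the genes apart there. The GC content of the transcript-binding bases was 46% for both ADGRE3 probes, and 48% and 50% for the HAL probes.

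The values are log2 normalized counts, on which a difference of 1 is a 2-fold change. When unlogged, all values of an animal were whole numbers times 1 factor, and the recovered counts of the 20 features summed to between 13871 and 34415 per animal (median 20265). ADGRE3 had 60 to 328 counts per animal (median 123) and HAL 134 to 2189 (median 637). Neither gene was at or below T007 or T011 in any animal. Counting error came to at most 0.19 for ADGRE3 and 0.12 for HAL on the log2 scale (SD), below the within-group SD between animals of 0.51 and 0.95. HAL ranked 4th and ADGRE3 15th of 20 in that SD, whose median over the features was 0.60. The panel held no markers that define the cell types of the lung, so the tissue label could not be checked. In pooled lung tissue, fewer cells that express a gene and less RNA per cell cannot be told apart.

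ADGRE3 had a lower mean in Ph2 than in Ph1 at 6 and at 12 h but not at 24 h, and over all animals the difference did not pass the threshold of p below 0.05. In Ph1, ADGRE3 ran from 5.70 through a median of 6.98 to 7.84, with a mean of 7.04 ± 0.54 (SD, n = 14). In Ph2, it ran from 5.84 through 6.69 to 7.51, with a mean of 6.63 ± 0.50 (SD, n = 9). The groups overlapped widely, and SD9 at 24 h was the 1 of 9 Ph2 animals with a value over the median of Ph1. The difference of means was -0.40 (exact two-sided Mann-Whitney U test, p = 0.0534), and the median shift was -0.45 with a 95.4% interval of -0.89 to 0.031. After Benjamini-Hochberg adjustment over the 20 features, p was 0.240 by this exact test. In the same comparison 3 of 20 features, 15%, had an unadjusted p below 0.05.

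**Figure D1:**
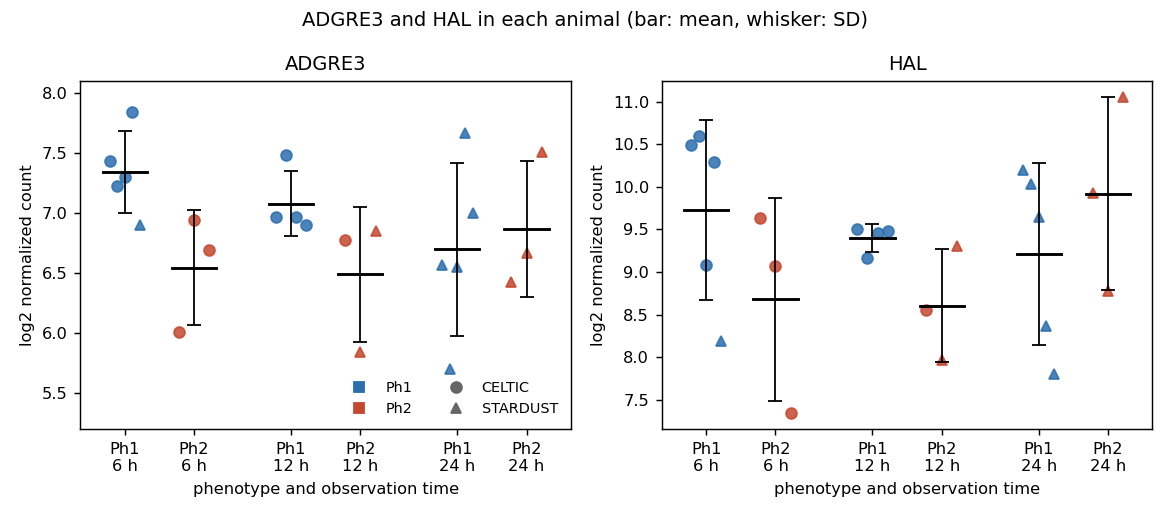
Log2 normalized count of ADGRE3 (left) and HAL (right) in each of 23 sheep, by phenotype and observation time. Each point is 1 animal (circle, CELTIC, and triangle, STARDUST), the bar is the group mean and the whisker the SD. At 12 h the ADGRE3 values of Ph1 (6.90 to 7.48) all lie above those of Ph2 (5.84 to 6.85), and at 24 h both groups overlap in both genes.

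At 6 h, ADGRE3 in the Ph1 animals was 7.43 in C1, 7.30 in C2, 7.84 in C3, 7.23 in C11 and 6.90 in SD6. In the Ph2 animals it was 6.01 in C4, 6.94 in C5 and 6.69 in G33. All Ph2 values lay below the 4 CELTIC values of Ph1, and the groups met at SD6 (the STARDUST animal of this time point) and C5. The means were 7.34 ± 0.34 (SD, n = 5) and 6.54 ± 0.48 (SD, n = 3) and differed by -0.79. The exact Mann-Whitney U test gave p = 0.0714, where 0.0357 is the smallest p that it allows for 5 and 3 animals.

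At 12 h, ADGRE3 was 6.97 in C17, 7.48 in C18, 6.90 in C21 and 6.97 in C19 of Ph1, all of CELTIC. It was 6.78 in G34 (CELTIC), 6.85 in SD4 and 5.84 in SD13 (both STARDUST) of Ph2. The groups did not overlap, although SD4 and C21 were only 0.052 apart, as the upper end of the interval of the shift shows (-1.64 to -0.052, 94.3%). The means differed by -0.59 (exact Mann-Whitney p = 0.0571, the smallest that this test allows for 4 and 3 animals). This difference rested largely on SD13, since it was -0.27 without that animal and the medians differed by -0.19. At this time point 6 of 20 features, 30%, had groups that did not overlap. With the mean of T036 to T039 subtracted, the ADGRE3 difference at 12 h was -0.77 and the groups overlapped (exact p = 0.4).

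At 24 h, where every animal was of STARDUST, ADGRE3 in Ph1 was 7.67 in SD2, 7.0 in SD7, 5.70 in SD10, 6.57 in SD1 and 6.55 in SD14. In Ph2 it was 6.67 in SD8, 7.51 in SD9 and 6.43 in SD11. The Ph1 values spanned those of Ph2, with SD10 the lowest and SD2 the second highest ADGRE3 value of all 23 animals. The difference of means was 0.17, with an interval of the shift of -1.24 to 1.81 (exact Mann-Whitney U test, p = 1). Without SD9 it was -0.15 and without SD10 -0.076. Adjusted over the 60 tests of 20 features at 3 time points, the exact p-values of ADGRE3 were 0.536, 0.536 and 1 in order of time.

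When the 24 h animals were left out, ADGRE3 ran from 6.90 through 7.23 to 7.84 in Ph1 and from 5.84 through 6.73 to 6.94 in Ph2. The means were 7.22 ± 0.32 (SD, n = 9) and 6.52 ± 0.47 (SD, n = 6), and 0 of 6 Ph2 animals exceeded the median of Ph1. The means differed by -0.71, with a median shift of -0.62 (exact p = 0.0016, Benjamini-Hochberg adjusted p = 0.032 over 20 features). Leaving out the 24 h animals was chosen with earlier results of these data known, and the adjustment does not cover that choice. With labels permuted within the 6 h and 12 h time points, an exact permutation test of means gave p = 0.00102. That test was chosen after the data were seen. In this comparison 7 of 20 features, 35%, had an unadjusted p below 0.05, and 1 of 20, 5%, had an adjusted p below 0.05, which was ADGRE3. Leaving out each of these 15 animals in turn kept the difference between -0.79 (without C5) and -0.57 (without SD13), with exact p between 0.000999 and 0.004.

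**Figure D2:**
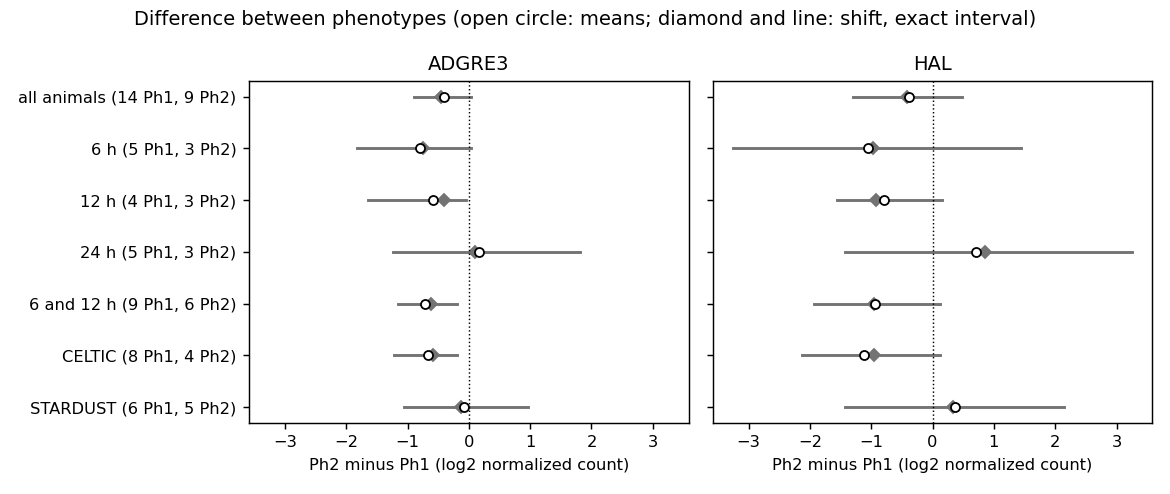
Difference between Ph2 and Ph1 in log2 normalized count of ADGRE3 (left) and HAL (right), for all animals, each time point, 6 and 12 h together and each study. Open circles are differences of means, diamonds the Hodges-Lehmann shift and lines its exact interval. The coverage of the intervals ran from 94.3% (12 h) to 97% (STARDUST). The ADGRE3 intervals at 12 h, at 6 and 12 h together and in CELTIC end below 0, and all HAL intervals include 0. The one at 12 h goes with an exact Mann-Whitney p of 0.0571, above the threshold.

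By the same exact test, HAL passed the threshold in none of the comparisons of phenotypes, and its groups overlapped in each of them. In Ph1, HAL ran from 7.80 through a median of 9.49 to 10.60, with a mean of 9.45 ± 0.87 (SD, n = 14). In Ph2, it ran from 7.34 through 9.07 to 11.05, with a mean of 9.07 ± 1.10 (SD, n = 9). Both the lowest (G33) and the highest HAL value (SD9) of the 23 animals belonged to Ph2, and 3 of 9 Ph2 animals exceeded the median of Ph1. The means differed by -0.38, with a median shift of -0.42 and a 95.4% interval of -1.30 to 0.48 (exact p = 0.305, adjusted p = 0.470 over 20 features). It was -0.16 without G33, -0.25 in limma with time point and study as blocks, and -0.22 as log2 of the ratio of unlogged means.

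At 6 h, HAL in Ph1 was 10.49 in C1, 9.08 in C2, 10.29 in C3, 10.60 in C11 and 8.19 in SD6. In Ph2 it was 9.63 in C4, 9.07 in C5 and 7.34 in G33. C1, C3 and C11 lay above every Ph2 value, while SD6 lay below C4 and C5. The difference was -1.05 (exact p = 0.25), and -0.38 without G33, with an interval of the shift of -3.26 to 1.45 in all 8 animals.

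At 12 h, the 4 Ph1 values of HAL lay close together, 9.51 in C17, 9.16 in C18, 9.48 in C21 and 9.46 in C19 (SD 0.16). The Ph2 values were 8.55 in G34, 9.30 in SD4 and 7.97 in SD13, and SD4 alone lay above C18. The difference was -0.79 (exact p = 0.114), with an interval of -1.55 to 0.15. With 6 and 12 h together, HAL was 9.58 ± 0.77 (SD, n = 9) in Ph1 and 8.64 ± 0.87 (SD, n = 6) in Ph2, a difference of -0.94 (exact p = 0.0663, adjusted p = 0.147). Exact p fell below 0.05 without 2 of the 15 animals, to 0.019 without C4.

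At 24 h, HAL in Ph1 was 8.37 in SD2, 7.80 in SD7, 10.03 in SD10, 10.20 in SD1 and 9.65 in SD14. In Ph2 it was 8.78 in SD8, 11.05 in SD9 and 9.93 in SD11. The Ph1 animals fell into low (SD2, SD7) and high values, and Ph2 had the highest animal. The difference was 0.71 (exact p = 0.571), and 0.15 without SD9, with an interval of the shift of -1.42 to 3.26. The Ph1 animals with the lowest HAL at 24 h, SD2 and SD7, had the highest ADGRE3 of Ph1 at this time, and SD10 had the lowest ADGRE3 with a HAL of 10.03.

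Whether the difference between phenotypes changed with the time point was tested in limma, over all 20 features. The moderated F of the interaction had a Benjamini-Hochberg adjusted p = 0.66 for both genes, in a test where 1 of 20 features, 5%, had an unadjusted p below 0.05. The difference at 24 h minus the mean of those at 6 and 12 h was 0.87 for ADGRE3 (95% interval -0.10 to 1.83) and 1.63 for HAL (-0.053 to 3.32), with limma's adjusted p = 0.471 for both. With study as a further block, the contrast was 0.75 (-0.23 to 1.73) and 1.40 (-0.30 to 3.09). With each animal's median of the 14 markers subtracted, it was 1.30 for ADGRE3 (0.13 to 2.48) and 2.07 for HAL (0.075 to 4.07), with limma's adjusted p = 0.284 for both. With the mean of T036 to T039 subtracted instead, it was 0.84 for ADGRE3 (-0.097 to 1.78) and 1.61 for HAL (-0.13 to 3.34). The intervals of this contrast thus included 0 in the deposited values and on this last scale, and lay above 0 on the median-centred scale. The subtracted median itself differed between phenotypes, by 0.44 at 6 h and -0.22 at 24 h.

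Within CELTIC, with animals at 6 and 12 h only, ADGRE3 was 7.26 ± 0.32 in Ph1 (SD, n = 8) and 6.60 ± 0.41 in Ph2 (SD, n = 4). The difference was -0.66 (interval of the shift -1.22 to -0.19, exact p = 0.00808, adjusted p = 0.0808), in a comparison where 6 of 20 features, 30%, had an unadjusted p below 0.05. HAL was 9.76 ± 0.61 and 8.65 ± 0.98 in the same animals, a difference of -1.11 (exact p = 0.0727, adjusted p = 0.208). An exact permutation test of means with labels permuted within time points gave p = 0.0114 for ADGRE3 and 0.0171 for HAL in CELTIC. That test was chosen after the data were seen and was not run over the other features. At 12 h, CELTIC had 1 Ph2 animal. Within STARDUST, ADGRE3 was 6.73 ± 0.65 in Ph1 (SD, n = 6) and 6.66 ± 0.61 in Ph2 (SD, n = 5), a difference of -0.071 (exact p = 0.792). HAL was 9.04 ± 1.04 and 9.41 ± 1.17 there, a difference of 0.37 in the other direction (exact p = 0.792). The change of the difference from CELTIC to STARDUST was 0.59 for ADGRE3 (limma, 95% interval -0.31 to 1.49, adjusted p = 0.50) and 1.48 for HAL (-0.10 to 3.06, adjusted p = 0.436). In this test 5% of the features had an unadjusted p below 0.05. At 6 and 12 h only, where STARDUST had 1 Ph1 and 2 Ph2 animals, the change was 0.11 for ADGRE3 (-1.09 to 1.31) and 1.56 for HAL (-0.49 to 3.60) in limma.

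No difference between time points within a phenotype passed the test in either gene. In Ph1, the means of ADGRE3 at 6, 12 and 24 h were 7.34 ± 0.34, 7.08 ± 0.27 and 6.70 ± 0.72, and those of HAL 9.73 ± 1.06, 9.40 ± 0.16 and 9.21 ± 1.06. In Ph2, they were 6.54 ± 0.48, 6.49 ± 0.57 and 6.87 ± 0.57 for ADGRE3, and for HAL 8.68 ± 1.19, 8.61 ± 0.67 and 9.92 ± 1.14. An exact permutation Kruskal-Wallis test of the time points gave p = 0.294 for ADGRE3 and 0.626 for HAL in Ph1, where 20% of the features had p below 0.05. In Ph2 it gave exact p = 0.993 and 0.339, where 5% of the features had p below 0.05. Among the 8 CELTIC animals of Ph1, 12 h minus 6 h was -0.37 for ADGRE3 (exact p = 0.2) and -0.71 for HAL (exact p = 0.343). Within Ph1, STARDUST minus CELTIC was -0.53 for ADGRE3 (exact p = 0.0813) and -0.72 for HAL (exact p = 0.282), and within Ph2 it was 0.058 and 0.76 (exact p = 0.905 and 0.413).

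Ordered by mean, ADGRE3 was highest in Ph1 at 6 h, then Ph1 at 12 h, Ph2 at 24 h, Ph1 at 24 h, Ph2 at 6 h and Ph2 at 12 h. HAL was highest in Ph2 at 24 h, followed by Ph1 at 6, 12 and 24 h, Ph2 at 6 h and Ph2 at 12 h. No group differed from the next in either order by more than the larger of their SDs, and the exact p of neighbours ran from 0.393 to 1. Ph2 at 6 h and at 12 h were the lowest groups in both orders.

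No correlation of ADGRE3 with HAL was detectable over the 23 animals in the values as deposited. Pearson's r was 0.19 (permutation p = 0.382) and Spearman's rho 0.14 (permutation p = 0.53), with adjusted p-values of 0.551 and 0.75 over 11 relations. Of the 190 pairs of features, 60 had a higher r, and the median r of the pairs was 0.02. Without SD10 and SD13, the animals farthest from the ADGRE3 median, r was 0.19 (n = 21, permutation p = 0.401) and rho 0.12. SD9, C1, C3 and C11 were high in both genes, SD13 was low in both, and SD10 and SD2 had one gene high and the other low.

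**Figure D3:**
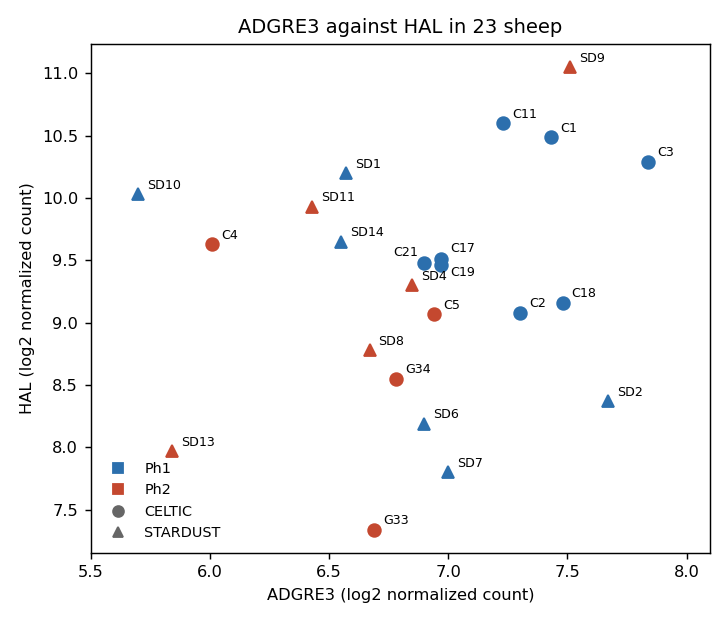
ADGRE3 (x axis) against HAL (y axis), both as log2 normalized count, with 1 labelled point per animal, coloured by phenotype and shaped by study. The points show no common line (r = 0.19), with SD10 and SD2 at opposite corners.

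Within phenotypes and studies no relation passed the test either. In Ph1, r was -0.096 (n = 14, permutation p = 0.745), and in Ph2 it was 0.45 (n = 9, exact permutation p = 0.22). Within CELTIC r was 0.41 (n = 12, permutation p = 0.175), and within STARDUST it was -0.0046 (n = 11, permutation p = 0.988). After the mean of each phenotype and time point was subtracted, r was -0.041 (permutation p = 0.853). With the median of the 12 other markers subtracted in each animal, r was 0.71 (permutation p = 0.00023, adjusted p = 0.00253) and rho was 0.66. On that scale both genes share the subtracted value, and CEACAM1 had an r of 0.75 with ADGRE3 and 0.78 with HAL. Subtracting the mean of the last 4 features of the table, T036 to T039, gave r = 0.24 (permutation p = 0.278).

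HAL minus ADGRE3 in the same animal, in which the normalization factor cancels, ran from 0.66 in G33 to 4.32 in SD10. It was 2.41 ± 1.06 in Ph1 (SD, n = 14) and 2.44 ± 0.98 in Ph2 (SD, n = 9). The means differed by 0.022 and the median shift was -0.022 (interval -0.93 to 1.04, exact p = 0.926), so that mean and shift differed in sign. No difference between the phenotypes was detectable in this quantity.

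The features most like ADGRE3 over the 23 animals were CEACAM1, a cell adhesion molecule of epithelium and leukocytes (r = 0.36), MMP8, the neutrophil collagenase (r = 0.35), and TCN1, a vitamin B12 binder of neutrophil granules (r = 0.33). After group means were subtracted, these were 0.13, 0.64 and 0.33. Most like HAL were CEACAM1 (r = 0.26), SULF2, a sulfatase that acts on heparan sulfate (r = 0.20), and, at r = 0.19, both ADGRE3 and TCN1. The lowest coefficients of HAL, named after the values were seen, were with LCN2, the iron-siderophore binder lipocalin 2 (r = -0.60), and GPR84, a receptor for medium-chain fatty acids (r = -0.54), and were -0.73 and -0.58 after group means were subtracted. On the median-centred scale these coefficients of HAL were 0.21 with LCN2, of the opposite sign, and -0.33 with GPR84. After group means were subtracted, HAL also had an r of -0.69 with T036 and -0.58 with MME, another gene picked for human P1. As deposited, 3 of the 4 other P1 genes had a positive r with ADGRE3 and 2 of 4 with HAL. MME had the lowest r of these 4 with both (-0.29 and -0.39). These coefficients describe 23 animals whose features share 1 normalization factor per animal and were not tested.

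**Figure D4:**
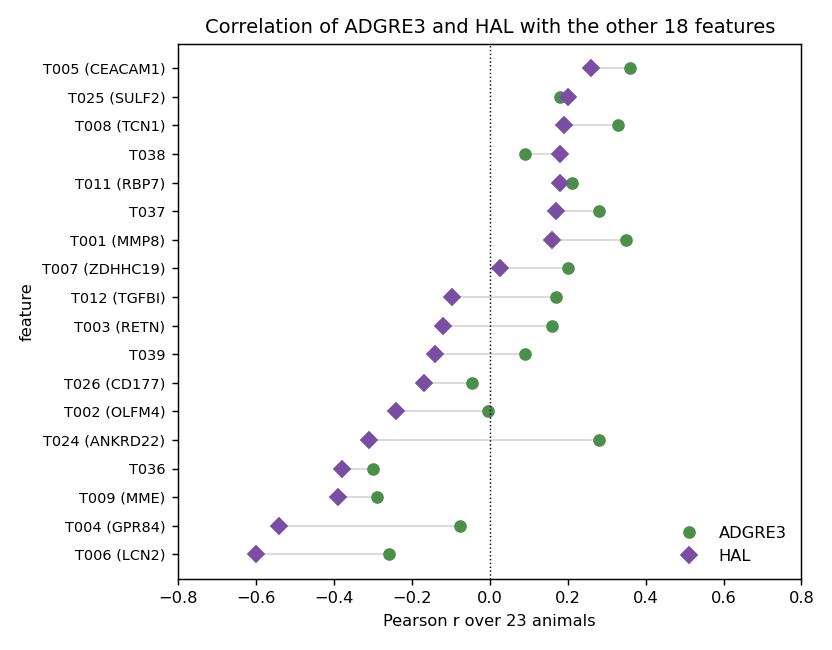
Pearson r over 23 animals of ADGRE3 (circles) and HAL (diamonds) with each of the other 18 features, ordered by the HAL value; genes in brackets are named by place. CEACAM1 is highest for both genes, and LCN2 (-0.60) and GPR84 (-0.54) are lowest for HAL.

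The 4 other genes of the panel picked for their higher level in human P1 blood leukocytes are MME (the surface peptidase neprilysin), RBP7 (a retinol-binding protein), TGFBI (an extracellular matrix protein) and SULF2. All 4 of 4 had a lower mean in Ph2 over all animals, as had 9 of 20 features, and 1 of them, SULF2, passed the test (-0.29, exact p = 0.023, adjusted p = 0.153), beside 2 of 20 features, 10%, that passed in this direction. MME differed by -0.49 (exact p = 0.0622) and TGFBI by -0.44 (exact p = 0.124). RBP7, at the low counts of T011, differed by -0.21 (exact p = 0.781) and was excluded by the paper as not detectable. The median difference of the 4, RBP7 included, was -0.36, against 0.068 over all 20 features. At 24 h, 3 of 4 and 10 of 20 features had a lower mean, and the median of the 4 was -0.045. The panel also holds 10 genes picked for the human P2 subphenotype, of which 8 had a higher mean in Ph2 (11 of 20 features did), 1 passed as higher and 1 as lower, with a median of 0.21. The one that passed as higher was GPR84 (1.52, exact p = 0.00857) and the one as lower CEACAM1 (-0.37, exact p = 0.00689), while ZDHHC19 at the low counts of T007 differed by -0.40 (exact p = 0.179). Within these 10, a narrower list of neutrophil and myeloid genes (MMP8, OLFM4, RETN, LCN2, TCN1 and CD177) leaves out those 3 and ANKRD22. CEACAM1 and ZDHHC19, the P2 genes with a lower mean, are thus outside that list, which was chosen with earlier results known. That list had a higher mean in 6 of 6, which follows in part from this choice. Its median was 0.26, and 0 had an unadjusted exact p below 0.05. Without the 24 h animals, 5 of these 6 had a higher mean and 2 passed, and all 4 P1 genes had a lower mean and 1 passed, with medians of 0.42 and -0.42. In that comparison 9 of 20 features had a higher mean, with a median of -0.015, and 35% passed. By direction, 3 of 20 passed as higher and 4 of 20, 20%, as lower. Of all 10 P2 genes, 7 had a higher mean, 3 passed as higher and 2 as lower. The shares of these short lists were not tested against those of all features. The part of myeloid cell content in the ADGRE3 and HAL values was not tested.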

How the data were processed

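Lung tissue RNA of 23 sheep was measured with a custom NanoString nCounter assay. The authors deposited log2 normalized counts. Per their methods, counts were corrected for background with the negative controls, scaled to 3 housekeeping genes (POLR2A, RPL19, TBP; geometric mean) and log2 transformed. Whether background was subtracted cannot be read from the values, and a common factor per animal moves both genes together. The depth (total count) was recovered from the unlogged values, which in each animal were multiples of 1 step, to within 0.0001 of a whole number (largest deviation 3.55e-10); the smallest such numbers were taken. As the deposited unit is log2, no count model was run.

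Groups came from the sample labels, with each animal 1 replicate. As in the study's methods, log2 values were compared by a two-sided Mann-Whitney U test, here exact, with the Hodges-Lehmann shift and its exact interval. Time points were compared by an exact permutation Kruskal-Wallis test, interactions by limma (lmFit, eBayes), and correlations by permutation (100000 resamples, exact for 9 animals), all two-sided. Benjamini-Hochberg adjustment covered 20 features, or 60 tests over time points. Beside both genes, the 3 features with the highest Pearson r to each were named. Genes were taken by place in the probe table, since the 14th to 16th features are numbered T024 to T026. The genes, lists, tests and the omission of the 24 h animals were chosen with earlier results of these data known. Alternatives covered tests, blocks, studies, centring, scale and leaving out each animal. Scripts were tested on simulated data. The software was R 4.3.3 (limma 3.58.1) and Python 3.11.15 (pandas 2.3.3, scipy 1.17.1, numpy 2.4.6). No genome, promoter or protein sequence was used here.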

Additional observations from a re-analysis of the deposited data

Results flagged for a closer look

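For each gene, the Ph1 animals of each time point and all Ph2 animals together were checked for a value far from the others. A value counted as far when its gap to the nearest other value, divided by the range of the group, exceeded Dixon's 95% critical value. This held in 2 of these 8 groups, and the criterion by its construction takes in about 1 in 20 groups without a true outlier. Both were C18, a Ph1 animal of CELTIC at 12 h. Its ADGRE3 of 7.48 lay above the 6.90 to 6.97 of the other 3 animals, and its HAL of 9.16 lay below their 9.46 to 9.51.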

How the results depend on the processing

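Of 115 alternatives other than leaving out an animal, 92 kept the direction and the side of the threshold. The difference of ADGRE3 over all animals, -0.40, was past the threshold by the exact test in CELTIC (-0.66), without the 24 h animals (-0.71), and with centring on T036 to T039 (-0.52, p = 0.0158). Alternatives chosen after seeing the data gave -0.71 for 6 and 12 h and -0.66 for CELTIC with labels permuted within time points (exact p = 0.00102 and 0.0114), and, at 6 and 12 h, -0.93 and -0.81 with centring on the 14 markers and on T036 to T039 (exact p = 0.0016 and 0.00759). The median of the 14 markers moved by 0.22 between phenotypes at 6 and 12 h, 0.44 at 6 h and -0.22 at 24 h. The mean of T036 to T039 moved by 0.12 over all animals, 0.11 at 6 and 12 h and 0.058 at 6 h. At 6 h and 12 h, an exact permutation test of the ADGRE3 means gave -0.79 (p = 0.0357) and -0.59 (p = 0.0286), and centring on T036 to T039 gave -0.85 at 6 h (exact p = 0.0357). The HAL difference was 0.37 in STARDUST and -1.11 in CELTIC (exact Mann-Whitney p = 0.0727). The exact permutation test within time points, chosen after seeing the data, gave p = 0.0171 there. Centred on the markers at 6 and 12 h, HAL differed by -1.16 (exact Mann-Whitney p = 0.036). The correlation was 0.71 centred on the 12 other markers, -0.041 after subtracting group means, -0.096 in Ph1 (-0.28 after subtracting them) and -0.0046 in STARDUST. HAL minus ADGRE3 differed by -0.23 without the 24 h animals and by -0.45 in CELTIC. The unadjusted limma p for 24 h against 6 and 12 h, chosen after seeing the data, was 0.0309 (ADGRE3) and 0.0427 (HAL) with centring on the 14 markers, and for HAL it was 0.0458 for 24 h against 6 h with study as a block. The cause was not tested.

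Leaving out each animal, the difference of ADGRE3 ran from -0.51 (without SD9) to -0.30 (without SD13), with exact p below 0.05 without SD10 (0.017), SD1, SD14 (0.0304 each) or SD9 (0.0128), and at 6 and 12 h it reached -0.79. It ran from -0.99 to -0.53 at 6 h, -0.77 (without SD4) to -0.27 (without SD13) at 12 h and -0.15 (without SD9) to 0.42 (without SD2) at 24 h, with -0.076 without SD10. HAL ran from -0.63 (without SD9) to -0.16 (without G33), to -1.14 at 6 and 12 h, from -1.52 to -0.38 at 6 h, -1.14 to -0.47 at 12 h and 0.15 to 1.28 at 24 h. The permutation p over time points ran from 0.0679 to 0.509 (ADGRE3, Ph1), 0.864 to 0.896 (ADGRE3, Ph2), 0.249 to 0.903 (HAL, Ph1) and 0.164 to 0.671 (HAL, Ph2). The limma interaction p ran from 0.0546 to 0.499 (ADGRE3) and 0.053 to 0.448 (HAL). The change between studies ran from 0.38 to 0.80 for ADGRE3 and 1.04 to 1.84 for HAL, with limma p below 0.05 for HAL without C4 (0.0331), SD13 (0.0219), SD10 (0.0411) or SD1 (0.0351). The correlation ran from 0.076 to 0.31, and HAL minus ADGRE3 from -0.13 to 0.24, below 0 without SD6 (-0.065), C2 (-0.027), C4 (-0.13), C18 (-0.035), SD2 (-0.11), SD7 (-0.10), SD9 (-0.12) or SD11 (-0.11). No paired analysis was possible, as each sheep is in 1 group and no labels pair sheep.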
